A study of Sorghum bicolor with 12 samples.

Results

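The MYB transcription factors of Sorghum bicolor were followed in seedlings of a grain and a sweet cultivar during 6 h in sucrose. Members were the loci whose family name began with MYB, MYB-related included, in the transcription factor list of the study. The rows of that list used here gave 206 such loci, of which 1 is not reported here, so that 205 were described, 111 from the MYB family and 94 from the MYB-related family, 1 of the latter being listed under both names. They were part of 1557 transcription factor loci in those rows and of 41977 probes analysed on the array. No measured value entered this choice. The loci lay on all 10 chromosomes, with 36 on chromosome 3, 34 on chromosome 1 and 7 on chromosome 5, the highest and lowest numbers.

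The plants were 14-day-old whole seedlings of BT×623, the grain cultivar from which the sorghum reference genome was made, and of Keller, a sweet cultivar known for sugar-rich stems. Seedlings from a greenhouse under natural light were washed free of soil, placed in a 5% sucrose solution and sampled at 0 h, 2 h and 6 h. Each of the 6 groups had 2 repeats, called biological replicates in the methods, and each RNA sample was labelled with Cy3 and hybridised to 1 of 12 custom one-colour arrays with 60-base probes. Seedlings kept as long without sucrose are not analysed here, so a difference between times holds the sugar, the handling and the hour of day together. The tissue was whole seedlings, so fewer cells that express a gene and less RNA per cell cannot be told apart.

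MYB proteins bind DNA through repeats of a helix-turn-helix fold. Plant proteins with a pair of these repeats (R2R3) control phenylpropanoid and flavonoid synthesis, cell identity and responses to stress. Most single-repeat proteins are listed as MYB-related. Among them are clock proteins such as LHY, and the list used here also places there proteins of the GARP class such as PCL1, Golden2 and KANADI, whose DNA-binding domain resembles a MYB repeat. In grasses the best-known members come from maize and rice, and the annotations name them by that likeness.

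Each value below is a scaled log2 signal, that is, the log2 of the processed signal of a locus's probe minus the log2 of the 75th percentile of its array, so 0 marks the brightness that 75% of probes do not exceed. Where 2 values are given for a group they are repeat 1 and repeat 2, in that order. Probes differ in how well they bind, so levels were compared between arrays for 1 locus and never between loci. A locus was called where limma, fitted over all probes and all 12 arrays, gave an adjusted p (Benjamini-Hochberg) below 0.05 and a difference of 2-fold or more. With 2 arrays in a group, this number limits the precision. The 75th percentile was 323 to 400 units of signal on the 4 arrays of slide 1 and 549 to 677 on the 8 of slides 2 and 3. The arrays had 28323 to 34664 probes well above background, the highest number on Keller at 0 h, repeat 2. Slide 1 held the 3 Keller arrays of repeat 1 and BT×623 at 0 h, repeat 1, so slide and group were partly mixed. All 12 arrays were scanned on 1 day.

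Most MYB genes gave a signal in the seedlings. Of the 205 members, 145 (70.7%) were well above background on all 12 arrays, against 62.8% of all probes, and 14 (6.83%) on no array, against 13.2%. On all arrays were 73 of 94 MYB-related members (77.7%) and 72 of 111 of the MYB family (64.9%), a difference that was not tested. On a single array 151 to 187 members were well above background. The 14 without signal included Sb01g019980, annotated as a B-type response regulator, a class that carries cytokinin signals to genes. Also among them were Sb09g003290, annotated only as a predicted protein, and its near neighbours Sb09g003360 and Sb09g003390, annotated by likeness to a one-repeat MYB protein. Those on no array were not detectable with these probes.

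For a test, both arrays of some group had to be well above background. This condition was met by 173 members, 92 of the MYB and 81 of the MYB-related family. By cultivar, 161 members (78.5%, all probes 70.2%) passed it in both, 2 (0.976%, all probes 2.36%) in BT×623 only, 10 (4.88%, all probes 3.59%) in Keller only and 32 (15.6%, all probes 23.9%) in neither. The 2 in BT×623 only were Sb01g005100 and Sb09g003350, and the 10 in Keller only included Sb08g019940, Sb01g014354 and Sb10g007420. These are dim probes near the limit, and Keller at 0 h, repeat 2, was the array with most probes above it.

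The first question was which MYB genes changed between 0 h and 6 h in sucrose. Averaged over the cultivars, 16 members fell and 7 rose. The largest falls were in Sb01g012460, Sb03g005480, Sb04g030510 and the P-type R2R3 gene Sb03g004600, between 9.59-fold and 69.6-fold, and the largest rise, 28.2-fold, was in Sb03g047330, annotated as the clock protein SbPCL1. The 23 called were 13.3% of the 173 tested, beside 9.12% of all probes and 10.5% of the other 1113 transcription factors tested. In the 2 directions 5.45% of all probes fell and 3.67% rose. The median difference of the members was -0.18 (log2), against 0.02 over all probes. The MYB family had 8 lower and 3 higher of 92, and the MYB-related family 8 lower and 4 higher of 81.

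**Figure D1:**
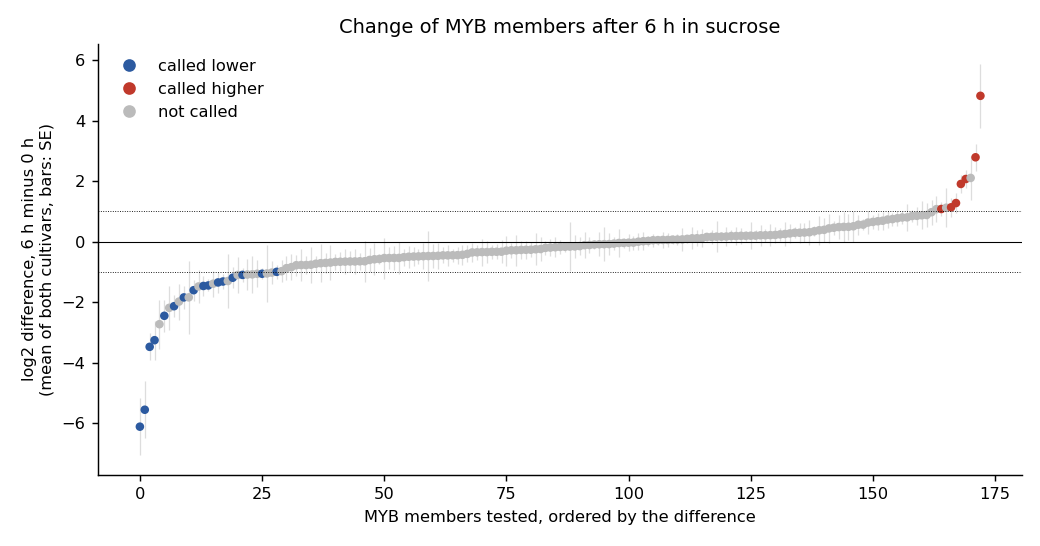
Change from 0 h to 6 h of the 173 tested MYB members, averaged over both cultivars, in order of size. The vertical axis is the log2 difference with its standard error from the limma fit, coloured points are the 23 called members and dotted lines mark 2-fold. The values run from -6.12 for Sb01g012460 to 4.82 for Sb03g047330, and 16 of the 23 called lie below 0.

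Sb03g047330 (chromosome 3, 74205803 to 74207284, minus strand) is annotated SbPCL1. Coordinates here and below are those of the gene list, which names no genome build. The Arabidopsis counterpart PCL1, also called LUX, is part of the evening complex of the circadian clock. The gene measured -4.21 and -4.89 in BT×623 and -4.35 and -4.55 in Keller at 0 h, -2.92 and -4.74 in BT×623 and -1.53 and -4.54 in Keller at 2 h, and 1.72 and -1.57 in BT×623 and 2.57 and -1.43 in Keller at 6 h. Both cultivars were low on all 4 arrays at 0 h and higher on all 4 at 6 h, without overlap. The rise over 6 h was 4.82 ± 1.07 (log2, SE, adjusted p = 0.0209 by limma). Repeat 1 lay above repeat 2 by 3.28 (log2) in BT×623 and 4.00 in Keller at 6 h, and by 1.83 and 3.01 at 2 h, so the repeats differed in the same way in both cultivars. In single cultivars the rise was 4.63 in BT×623 (adjusted p = 0.143) and 5.01 in Keller (adjusted p = 0.136), and neither was called.

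Sb01g012460 (chromosome 1, 11494360 to 11494929, minus strand) is listed in the MYB family without a described function. It measured 1.77 and 1.57 in BT×623 and 1.72 and 0.79 in Keller at 0 h, -3.80 and -0.89 in BT×623 and -4.59 and -1.74 in Keller at 2 h, and -5.48 and -3.11 in BT×623 and -6.43 and -3.63 in Keller at 6 h. The arrays at 0 h were all above 0 and those at 6 h all below -3, and the fall was the largest of any member, 69.6-fold (-6.12 ± 0.94, adjusted p = 0.00497). The repeats differed at 2 h and 6 h in both cultivars, with repeat 1 lower each time. At 6 h, 3 of the 4 arrays were still well above background, and repeat 1 of Keller was not. With other ways of processing and with single arrays left out, the difference ran from -6.82 to -3.86.

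Sb03g005480 (chromosome 3, 5638607 to 5640277, plus strand), a MYB-related locus annotated by its likeness to an undescribed rice protein, measured 0.61 and -2.92 in BT×623 and 3.26 and 0.40 in Keller at 0 h, -4.03 and -2.35 in BT×623 and -2.42 and -0.70 in Keller at 2 h, and -6.00 and -5.07 in BT×623 and -5.80 and -4.03 in Keller at 6 h. Its 0 h values spread widely between repeats, by more than 2 log2 units in each cultivar, yet none reached down to the 6 h values. The fall was 47.2-fold (-5.56 ± 0.94, adjusted p = 0.00709). At 6 h, 3 of the 4 arrays were well above background, and repeat 1 of Keller was not. With other ways of processing and with single arrays left out, the difference over both cultivars ran from -6.44 to -3.46. In Keller alone the test was passed (-6.74 ± 1.33, adjusted p = 0.039), with 1 of its 2 arrays at 6 h not well above background, and the call was lost without any 1 of 10 arrays and with normexp background correction (-4.45, adjusted p = 0.0658).

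Sb04g030510 (chromosome 4, 60485216 to 60487103, minus strand), annotated as a putative MYB-related protein, had the smallest adjusted p of all members at 6 h. It measured 2.40 and 0.97 in BT×623 and 2.43 and 0.74 in Keller at 0 h, 0.64 and 0.54 in BT×623 and 1.04 and 0.23 in Keller at 2 h, and -1.36 and -2.39 in BT×623 and -1.75 and -1.88 in Keller at 6 h. The 4 arrays at 6 h were below -1 and the other 8 were above 0. The fall from 0 h to 6 h was 11.2-fold (-3.48 ± 0.45, adjusted p = 0.00242). It was the only member called in each cultivar on its own, at -3.56 in BT×623 (adjusted p = 0.0256) and -3.40 in Keller (adjusted p = 0.0334), and the only one called from 2 h to 6 h (-2.46, adjusted p = 0.045, beside 1.19% of all probes called). The call from 2 h to 6 h was lost without any 1 of the 8 arrays of those times, at an adjusted p of 0.0883 to 0.156. Only 29.3% of its change was reached at 2 h.

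Sb03g004600 (chromosome 3, 4902555 to 4903708, minus strand) is annotated as a typical P-type R2R3 protein. Its values were -2.60 and -0.74 in BT×623 and -2.91 and -0.14 in Keller at 0 h, -4.84 and -3.58 in BT×623 and -4.21 and -3.82 in Keller at 2 h, and -4.75 and -5.45 in BT×623 and -4.99 and -4.25 in Keller at 6 h. The level at 0 h was higher in repeat 2 in both cultivars, and every array at 0 h was above every array at 6 h. The fall was 9.59-fold (-3.26 ± 0.65, adjusted p = 0.0137), and 77.1% of it was reached at 2 h.

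Apart from SbPCL1, the strongest rises were in Sb08g018370 (chromosome 8, 48372095 to 48373890, minus strand), a MYB family locus annotated only by its DNA-binding domain, and in Sb07g021290 (chromosome 7, 55255162 to 55256775, plus strand), a MYB-related locus without a described function. Sb08g018370 measured -1.69 and -3.63 in BT×623 and -2.56 and -2.44 in Keller at 0 h, -0.06 and -1.55 in BT×623 and -0.70 and -1.26 in Keller at 2 h, and 0.34 and 0.26 in BT×623 and 0.22 and 0.02 in Keller at 6 h. All 4 arrays at 6 h lay above all 4 at 0 h. It rose 6.90-fold (2.79 ± 0.44, adjusted p = 0.00567), and 60.5% of the rise was reached at 2 h. The values of Sb07g021290 were -0.43 and -0.77 in BT×623 and 0.40 and -0.47 in Keller at 0 h, 1.12 and 0.49 in BT×623 and 1.76 and 1.06 in Keller at 2 h, and 2.01 and 1.18 in BT×623 and 2.24 and 1.58 in Keller at 6 h. Its highest array at 0 h was just under its lowest at 2 h, and the 4 arrays at 6 h lay above 1. It rose 4.19-fold at 6 h (2.07 ± 0.31, adjusted p = 0.00447).

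**Figure D2:**
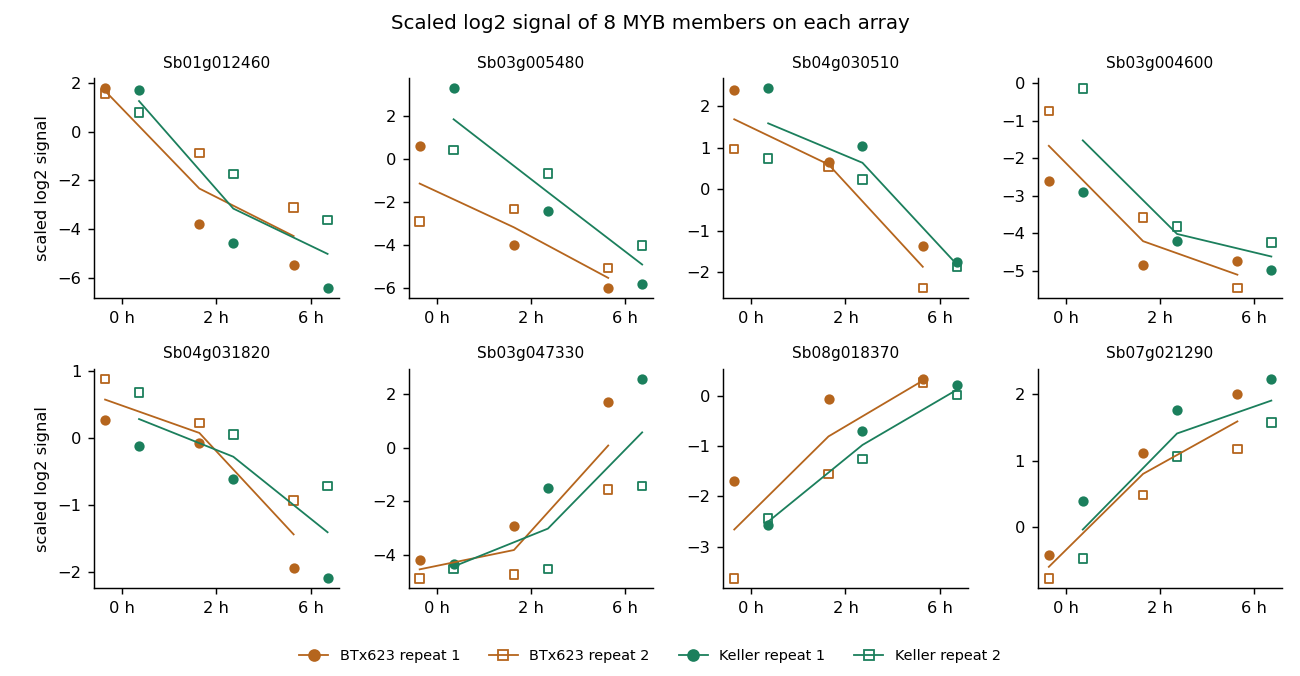
Scaled log2 signal (vertical axis) of 8 MYB loci at 0, 2 and 6 h (horizontal axis) in BT×623 and Keller. Filled circles are repeat 1, open squares repeat 2, and lines join the means of the 2 arrays. In all 8 panels the 6 h means of both cultivars lie on the same side of their 0 h means, and repeat 1 of Sb03g047330 lies above repeat 2 at 6 h by 3.28 in BT×623 and 4.00 in Keller.

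Of the remaining 12 lower members, Sb04g026210 was well above background on all 4 arrays at 0 h and on none at 6 h, so it was tested only through the arrays where it was high and its fall was given as a bound. It measured -4.53 and -2.31 in BT×623 and -4.83 and -3.19 in Keller at 0 h and -6.09 and -6.66 in BT×623 and -5.87 and -6.06 in Keller at 6 h. The fall was at least 4.21-fold over both cultivars (adjusted p = 0.0199), at least 5.81-fold in BT×623 (adjusted p = 0.0766) and at least 3.05-fold in Keller (adjusted p = 0.236), neither called on its own. These p-values set the 0 h signal against values at background, and with normexp background correction the difference was -0.94, under 2-fold. Sb04g031820, a MYB-related locus, fell 3.60-fold (-1.85 ± 0.38, adjusted p = 0.0151) from 0.26 and 0.88 in BT×623 and -0.11 and 0.68 in Keller at 0 h to -1.94 and -0.94 in BT×623 and -2.09 and -0.72 in Keller at 6 h. The neighbours Sb03g028950 and Sb03g028960 fell 4.40-fold (adjusted p = 0.00762) and 2.77-fold (adjusted p = 0.0259). The other 8 fell between 2.00-fold and 3.05-fold, most in Sb01g037110 (-1.61, adjusted p = 0.019) and Sb03g028170 (-1.45, adjusted p = 0.00299). The 8 also included Sb04g005940, annotated as TaMYB1, a wheat gene that responds to low oxygen (-1.32, adjusted p = 0.00926), and Sb01g028870, annotated MCB1 (-1.35, adjusted p = 0.0341). Another was Sb06g022660, annotated Myb4, which in rice is a regulator of cold responses (-1.001, adjusted p = 0.025). Sb04g005940 had overlapping values at 0 h and 6 h. With quantile normalization Sb01g028870 was not called (-1.32, adjusted p = 0.0505). Sb06g022660 was under 2-fold with quantile normalization (-0.93) and with normexp background correction (-0.94). Both Sb04g005940 and Sb01g028870 are named after their values were seen.

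The other 4 rising members were Sb03g010970 (1.91, adjusted p = 0.00631), Sb08g005290 (1.27, adjusted p = 0.0393), Sb07g027680 (1.13, adjusted p = 0.0435) and Sb01g036680, annotated as a transfactor (1.08, adjusted p = 0.0148). Sb03g010970 was dim, well above background on 1 of 4 arrays at 0 h and on all 4 at 6 h, and its arrays overlapped. It is named after its values were seen. With normexp background correction its difference at 6 h was 0.05, and those of Sb08g005290 and Sb03g028950 were 0.35 and -0.79, none of them called. Of the 23 called members, 21 had no overlap between the 4 arrays at 0 h and the 4 at 6 h. Among all 173 tested, the arrays did not overlap in 20 lower (11.6%, all probes 9.51%) and 15 higher (8.67%, all probes 10.9%). With each of the 12 arrays left out in turn, 10 of the 23 calls remained every time, among them Sb01g012460, Sb03g005480, Sb04g030510, Sb08g018370 and Sb07g021290. The count fell to 12 without repeat 1 of BT×623 at 6 h and to 15 without repeat 1 of Keller at 6 h. The call of Sb03g047330 was lost without either of these arrays (adjusted p = 0.0688 and 0.0591), without either Keller array of 0 h (0.0565 and 0.0521) and without repeat 2 of BT×623 at 0 h (0.0505). That of Sb03g004600 was lost without repeat 1 of Keller at 6 h (0.0507), and that of Sb04g031820 without repeat 1 of BT×623 at 6 h (0.054).

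In all 23 called members the 6 h difference had the same sign in BT×623 and in Keller, which the choice by the mean of both favours. Over the 173 tested members, 21 (12.1%) were at least 2-fold lower at 6 h in both cultivars, against 6.89% of all probes, and 7 (4.05%) were at least 2-fold higher in both, against 4.51%. In BT×623 32 were lower and 13 higher by that much and in Keller 25 and 10, and 0 members differed 2-fold in opposite directions (all probes 0.163%). The difference of the 6 h change between the cultivars was called for 0 members and for 0 of all probes by limma, with 0 members (all probes 0.995%) at an unadjusted p under 0.05. That test does not show that the changes were equal. Since slide 1 held Keller at 0 h and 6 h and slide 3 BT×623 at 0 h and 6 h, each change could be read within 1 slide. There all 23 called members had differences in the called direction on both slides, 18 by at least 2-fold in Keller and 19 in BT×623, and 14 in both. These arrays were among those that gave the calls, so the choice favoured this agreement and it is no separate test. The share over all probes is not given here. Within slide, Sb03g047330 rose by 6.91 in Keller and 3.32 in BT×623 (log2). Sb01g012460 fell by 8.15 and 4.68, and Sb06g022660 by 0.19 and 1.01.

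**Figure D3:**
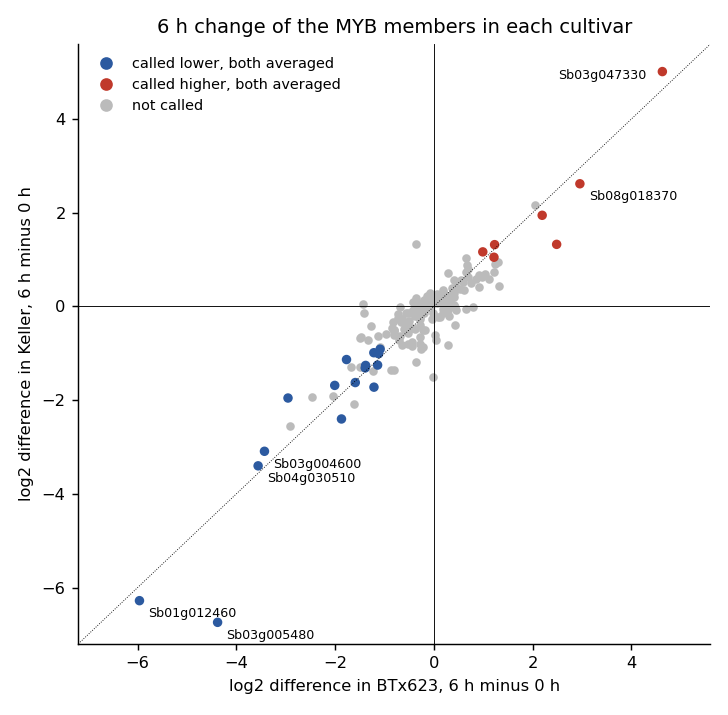
Change from 0 h to 6 h of the 173 tested MYB members in BT×623 (horizontal axis) and Keller (vertical axis), both as log2 differences of group means of 2 arrays, with a dotted line where they are equal. Coloured points are the 23 members called over both cultivars. Of these, 16 are lower and 7 higher in both cultivars.

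In single cultivars fewer members passed the test. In BT×623 5 were called at 6 h (2.89%, all probes 2.97%). Besides Sb04g030510 these were Sb08g018370 (2.96 ± 0.63, adjusted p = 0.0443), Sb07g021290 (2.19 ± 0.44, adjusted p = 0.0373), Sb03g010970 (at least 1.39-fold higher, adjusted p = 0.025) and Sb03g028170 (-1.77 ± 0.28, adjusted p = 0.0188). For Sb03g010970 neither BT×623 array of 0 h was well above background, so its p-value set signal against background values. Its bound is under 2-fold, and with normexp background correction its difference in BT×623 was 0.01. In Keller 2 were called (1.16%, all probes 2.21%), Sb03g005480 and Sb04g030510. These counts changed when single arrays were left out, and each such fit has fewer arrays to estimate the spread of every probe. Sb08g018370 and Sb07g021290 were no longer called in BT×623 without a Keller array of 2 h, at an unchanged difference. The share of all probes called in these fits is not given here. In BT×623 limma called 0 members without repeat 1 or repeat 2 of BT×623 at 6 h (22 and 31 at an unadjusted p under 0.05 and 2-fold), 1 without repeat 1 of BT×623 at 0 h, and 3 without either Keller array of 6 h. In Keller it called 0 without repeat 1 of Keller at 0 h, or without any 1 array of 2 h or Keller array of 6 h (18 to 25 at an unadjusted p under 0.05 and 2-fold), 1 without either BT×623 array of 6 h and 4 without either BT×623 array of 0 h.

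Same-numbered repeats of different groups deviated together, so the fit was also made with the repeat number as a block. Over both cultivars it called 33 members, 8 higher and 25 lower (all probes 13.0%), 18 in BT×623 (all probes 9.25%) and 18 in Keller (all probes 7.67%). Under the block 14 members (8.09% of 173, all probes 5.90%) were called in both cultivars, 9 lower and 5 higher. Among these were Sb03g047330, Sb07g021290, Sb08g018370 and Sb07g027680 on the higher side, and Sb01g012460, Sb03g004600, Sb04g030510 and Sb04g031820 on the lower. Members called only with the block included Sb04g026480 (-2.73), Sb09g020340 (2.10), Sb02g040480 (-1.99), Sb03g012310 (-1.85), Sb10g030960 (-1.30) and the Golden2-like locus Sb10g008400 (-1.07, adjusted p = 0.0356), named after their values were seen. With the slide as a block the 6 h count was 32 (all probes 13.5%), and Sb06g022660 was no longer called.

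At 2 h fewer members had passed the test. Over both cultivars 3 rose and 1 fell (2.31%, all probes 2.44%, with 0.970% higher and 1.46% lower). Sb07g021290 had risen 2.69-fold (1.43 ± 0.31, adjusted p = 0.0472), a call that was lost with each of the 12 arrays left out in turn (adjusted p = 0.056 to 0.181) and also without the filter or the variance trend (0.0552 and 0.0594). Sb04g005940 had fallen 2.40-fold (-1.26 ± 0.24, adjusted p = 0.0306), and this call was lost without any 1 of 7 arrays. The third, Sb01g009870, a MYB family locus without a described function, rose 2.23-fold (1.16 ± 0.24, adjusted p = 0.0423). It measured -0.38 and -0.51 in BT×623 and -1.52 and -0.46 in Keller at 0 h, 0.64 and 0.73 in BT×623 and 0.16 and 0.24 in Keller at 2 h, and 0.39 and 0.05 in BT×623 and 0.13 and -0.34 in Keller at 6 h. It was not called at 6 h (0.77, adjusted p = 0.0683), and its call at 2 h was lost without any 1 of 11 arrays. The fourth was the dim Sb03g010970 (1.77, adjusted p = 0.0242), whose difference was -0.02 with normexp background correction. Among all 173, the 4 arrays of 2 h did not overlap those of 0 h in 12 higher (6.94%, all probes 6.46%) and 16 lower (9.25%, all probes 6.08%). With the repeat number as a block 11 members were called at 2 h, 5 higher and 6 lower (all probes 5.65%). In BT×623 and Keller alone limma called 0 members (all probes 0.182% and 0.160%), with 25 (14.5%, all probes 11%) and 18 (10.4%, all probes 9.22%) at an unadjusted p under 0.05, and with the repeat block 5 (all probes 2.39%) and 2 (all probes 1.66%). Over both cultivars limma called 0 members without Keller at 2 h, repeat 1, or without either BT×623 array of 2 h (12 to 21 at an unadjusted p under 0.05 and 2-fold), 1 without either Keller array of 0 h, Keller at 2 h, repeat 2, or BT×623 at 0 h, repeat 2, and 2 without any 1 array of 6 h.

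Most members called at 6 h had part of that difference at 2 h. The 2 h mean lay between those of 0 h and 6 h for all 16 lower members and for 6 of the 7 higher ones, the exception being Sb07g027680, which had reached 108% of its 6 h change. More than 50% of the change was reached at 2 h by 11 of the 16 lower and 5 of the 7 higher members. These counts hold the dim Sb04g026210, well above background on 1 of the 8 arrays of 2 h and 6 h, and Sb03g010970, and no share is given for either. Sb04g005940 (95.6%), Sb06g022660 (90.1%) and Sb01g007030 (77.6%) had most of their fall by then. Sb03g047330 (22.2%), Sb08g005290 (25.1%), Sb04g031820 (28.6%) and Sb04g030510 (29.3%) had most of their change between 2 h and 6 h. Under the repeat block the step from 2 h to 6 h was called for 5 members (all probes 4.22%), which besides Sb04g030510 were Sb03g047330 (3.75, adjusted p = 0.0134), Sb04g031820, the LHY locus Sb04g031590 (-1.64, adjusted p = 0.0437) and Sb10g008400. The times share their arrays, so the shares of change carry no test.

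The second question was which MYB genes differed between the cultivars. The probes of these loci were designed from the annotated genome of BT×623. Whether sequence differences in Keller altered their signal was not tested. Averaged over the 3 times, 5 members were higher in Keller and 0 lower (2.89% of 173, all probes 5.00%, with 1.98% higher and 3.02% lower). At an unadjusted p under 0.05 there were 19 (11%, all probes 17.9%), and with the repeat number as a block 6 members were called (all probes 6.45%). In 4 members all 6 Keller arrays lay above all 6 BT×623 arrays (2.31%, all probes 2.16%), and in 0 they lay below (all probes 3.01%). The 4 were Sb03g000400, Sb08g019940 and Sb05g027360, all called, and Sb09g029575 (0.62, adjusted p = 0.116).

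Sb03g000400 (chromosome 3, 290626 to 298022, plus strand) is annotated as Golden2, in maize a regulator of chloroplast development in the bundle sheath. It measured -4.83 and -2.86 in BT×623 and -2.70 and -0.92 in Keller at 0 h, -3.07 and -2.76 in BT×623 and -1.37 and -1.05 in Keller at 2 h, and -4.08 and -3.02 in BT×623 and -1.21 and -0.98 in Keller at 6 h. Every Keller array lay above every BT×623 array. The difference was 4.18-fold (2.06 ± 0.42, adjusted p = 0.0174). Within slides it was 2.13 at 0 h (slide 1), 2.02 at 2 h (slide 2) and 2.04 at 6 h (slide 3). Of the 5 green leaf markers tested limma called 0 between the cultivars, with a median difference of -0.16. The call was lost, at an adjusted p of 0.051 to 0.0554, without BT×623 at 2 h or 6 h, repeat 1, or Keller at 2 h or 6 h, repeat 2. The other locus of this name, Sb10g008400, differed by -0.14 (adjusted p = 0.896).

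Sb05g027360 (chromosome 5, 61638577 to 61639861, minus strand) is annotated MYBAS1, after a rice gene. Its values were -0.57 and -0.09 in BT×623 and 0.47 and 1.16 in Keller at 0 h, -0.65 and -1.26 in BT×623 and -0.04 and 0.71 in Keller at 2 h, and -1.79 and -1.72 in BT×623 and -0.01 and 1.37 in Keller at 6 h. Keller was 3.08-fold higher over the times (1.62 ± 0.28, adjusted p = 0.0071), and the call remained with each of the 12 arrays left out. At 6 h alone the difference was 5.40-fold (2.43 ± 0.48, adjusted p = 0.0366), the only call at a single time (0.578% of 173 members, all probes 2.21%). That call remained without Keller at 0 h, repeat 1 or repeat 2, and without Keller at 6 h, repeat 1, and was lost without any 1 of the other 9 arrays, at an adjusted p of 0.0505 to 0.209. Within slides it was 1.04 at 0 h, 1.36 at 2 h and 3.09 at 6 h. The neighbour Sb05g027370 carries the same annotation on the same strand, and differed by 0.53 (adjusted p = 0.564). With the slide as a block it was called (adjusted p = 0.0403).

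Sb08g019940 (chromosome 8, 50931974 to 50934229, plus strand), annotated as a putative transfactor, was well above background on all 6 Keller arrays and on 1 of 6 BT×623 arrays. It measured -7.38 and -6.06 in BT×623 and -4.96 and -4.25 in Keller at 0 h, -5.92 and -5.48 in BT×623 and -4.25 and -4.52 in Keller at 2 h, and -5.02 and -5.99 in BT×623 and -3.35 and -4.41 in Keller at 6 h. It thus passed the filter only in Keller, where it was high, and its call over the times (adjusted p = 0.0174) set Keller largely against values not well above background. With normexp background correction the mean difference was 0.54 (adjusted p = 0.362). Where both BT×623 arrays were not well above background, it was at least 2.03-fold at 0 h (adjusted p = 0.168) and at least 2.24-fold at 2 h (adjusted p = 0.587), neither called. Its segmental duplicate Sb01g014354 also passed the filter only in Keller and was not called (adjusted p = 0.062). It was called with the repeat number (adjusted p = 0.0215) or the slide (adjusted p = 0.00983) as a block, likewise partly against BT×623 arrays that were not well above background. The call of Sb08g019940 was lost without any 1 of 5 arrays, namely Keller at 2 h or 6 h, repeat 1, Keller at 0 h, repeat 2, BT×623 at 2 h, repeat 1, and BT×623 at 6 h, repeat 2.

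**Figure D4:**
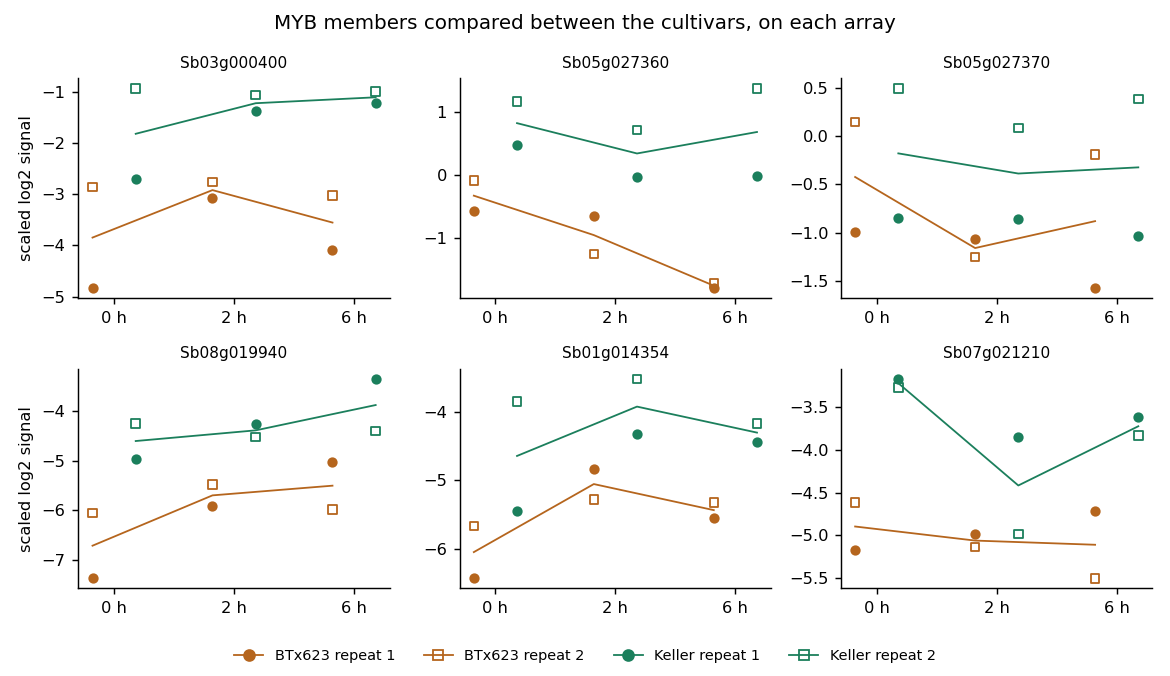
Scaled log2 signal (vertical axis) of 6 MYB loci at 0, 2 and 6 h (horizontal axis) in BT×623 and Keller. Filled circles are repeat 1, open squares repeat 2, and lines join the means of the 2 arrays. Keller lies above BT×623 on all arrays for Sb03g000400, Sb05g027360 and Sb08g019940, while the arrays of the cultivars overlap for the other 3.

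The other 2 called loci had overlapping arrays and are named after their values were seen. Sb07g021210, annotated MYB1, was 2.36-fold higher in Keller (1.24, adjusted p = 0.0213), with within-slide differences of 2.01, 0.00 and 1.67 at 0 h, 2 h and 6 h, and 1.16 (adjusted p = 0.0546) with the slide as a block. With normexp background correction it was 0.56 (adjusted p = 0.233), and the call was lost without any 1 of 8 arrays. Sb03g010970 was 2.45-fold higher (1.29, adjusted p = 0.0155), and 0.46 higher with normexp background correction. The count of 5 fell to 2 without Keller at 2 h, repeat 1, without Keller at 6 h, repeat 1, and without BT×623 at 6 h, repeat 2. It fell to 3 without BT×623 at 2 h, repeat 1 or repeat 2, and without Keller at 0 h, repeat 2. At 0 h limma called 0 members (all probes 2.18%), with 11 at an unadjusted p under 0.05 (6.36%, all probes 8.10%), and at 2 h 0 (all probes 2.34%), with 5 (2.89%, all probes 8.74%). With the repeat number as a block 2 were called at 0 h (all probes 3.21%), Sb03g028170, lower in Keller (-1.26, adjusted p = 0.032), and Sb03g010970, which at 0 h was well above background on 0 of 2 BT×623 and 1 of 2 Keller arrays, so that no fold is given. With the block Sb03g000400 joined at 6 h (2.45, adjusted p = 0.0276, all probes 3.41%).

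A set of well-known gene names, such as LHY, C1 and GAMYB, was looked up in the annotations and found 25 members, of which 24 were tested. Of these 24, 2 were called from 0 h to 6 h, Sb03g047330 and Sb06g022660, and 2 between the cultivars, Sb03g000400 and Sb05g027360. The names TaMYB1, MCB1 and MYB1, of called loci given above, were not in that set. LHY, which in Arabidopsis is a morning-expressed clock repressor, is represented by Sb04g031590. It measured -4.34 and -3.58 in BT×623 and -4.26 and -3.18 in Keller at 0 h, -4.60 and -2.66 in BT×623 and -3.77 and -2.14 in Keller at 2 h, and -5.59 and -5.33 in BT×623 and -4.09 and -4.71 in Keller at 6 h. Its difference at 6 h was -1.09 ± 0.52 (adjusted p = 0.204), and at 2 h it was 0.55 ± 0.52 (adjusted p = 0.643).

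Among regulators of the phenylpropanoid pathway, Sb10g006700, annotated C1, the maize activator of anthocyanin genes, differed by -0.48 ± 0.82 at 6 h (adjusted p = 0.748) and by 0.45 ± 0.67 between cultivars (adjusted p = 0.797). Sb02g031190, annotated MYB31, in maize a repressor of lignin genes, differed by -0.10 ± 0.15 (adjusted p = 0.711) and by -0.39 ± 0.12 (adjusted p = 0.109). Of developmental regulators, Sb08g018840, annotated rough sheath 2, which in maize keeps knox genes off in leaves, was 0.86 ± 0.29 higher in Keller (adjusted p = 0.151). Sb07g020820, like KANADI1, a factor of the lower leaf side in Arabidopsis, was 0.65 lower (adjusted p = 0.143). The GAMYB loci, named for the gibberellin-responsive activator of cereal aleurone, gave 0.87 (Sb10g023665, adjusted p = 0.241) and -0.12 (Sb10g027280, adjusted p = 0.89) at 6 h. The CDC5 loci, whose products take part in splicing, gave 0.65 (Sb03g044450, adjusted p = 0.0926) and 0.18 (Sb08g015280, adjusted p = 0.589).

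The rest of the named loci gave differences of -0.67 to 0.73 at 6 h. The single myb histone loci Sb01g013670 and Sb03g005080, of a family that binds telomeres in maize, gave 0.73 and 0.19. The 3 terminal acidic SANT loci gave -0.04 to -0.34, the ANTHER INDEHISCENCE1 locus Sb08g005140 -0.27, Mybst1 (Sb01g029020) -0.67, JAMyb (Sb05g026820), named for its response to jasmonate in rice, 0.07, and MYBAS2 (Sb08g018580) 0.04. None of these passed the test.

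Neighbouring MYB genes were compared because they often arose by duplication. In 24 runs, with starts less than 200 kb apart, lay 60 of the 205 members, 18 runs having 2 members and the largest 7. Of the 28 members called in any comparison, 9 lay in runs, spread over 7 runs, and 2 runs held more than 1. On chromosome 3, Sb03g028950 (-2.14) and Sb03g028960 (-1.47) both fell at 6 h, while the third of the run, Sb03g029050, well above background on only 2 arrays, gave -1.11 (adjusted p = 0.242). In the run of 5 on chromosome 7, Sb07g021290 rose by 2.07, whereas the tested neighbours Sb07g021210, Sb07g021280 and Sb07g021420 gave -0.36, -0.48 and -0.28. In the run of 3 around Sb03g010970 (1.91) the neighbours gave 0.44 and -0.55, and around Sb04g031030 (-1.10) they gave 0.69 and 0.80. The run of 7 loci on chromosome 9, most of them annotated by likeness to a one-repeat MYB protein, spanned 159 kb. Only 2 of its members were tested (-0.54 and -0.85 at 6 h, neither called).

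The rows used here of the study's lists of duplicated genes held 5 tandem and 17 segmental pairs in which both were members. Of the 5 tandem pairs, all tested, 2 had 1 called copy at 6 h and 0 had both, and in both pairs the called copy was the dim Sb03g010970. Of the 16 segmental pairs tested, 5 had 1 called copy and 0 had both. Sb01g036680 was the called copy in more than 1 of these pairs. Among all 173 tested members 13.3% were called at 6 h (all probes 9.12%), and whether the pairs depart from that share was not tested. Sb01g036680 rose by 1.08 and its duplicates Sb02g043320 and Sb09g023830 gave 0.37 and 0.88. Sb01g037110 fell by 1.61 against -0.61 for Sb02g043420. Sb03g028950 fell by 2.14 against 0.05 for Sb09g029575, and Sb03g028960 by 1.47 against -0.36 for Sb09g029560. In a pair without a call both copies were low, at -1.49 for Sb03g040730 (adjusted p = 0.112) and -2.19 for Sb09g021770 (adjusted p = 0.0837). The differences between copies were not tested, and near-identical copies may share signal although the probes were designed to be unique.

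**Figure D5:**
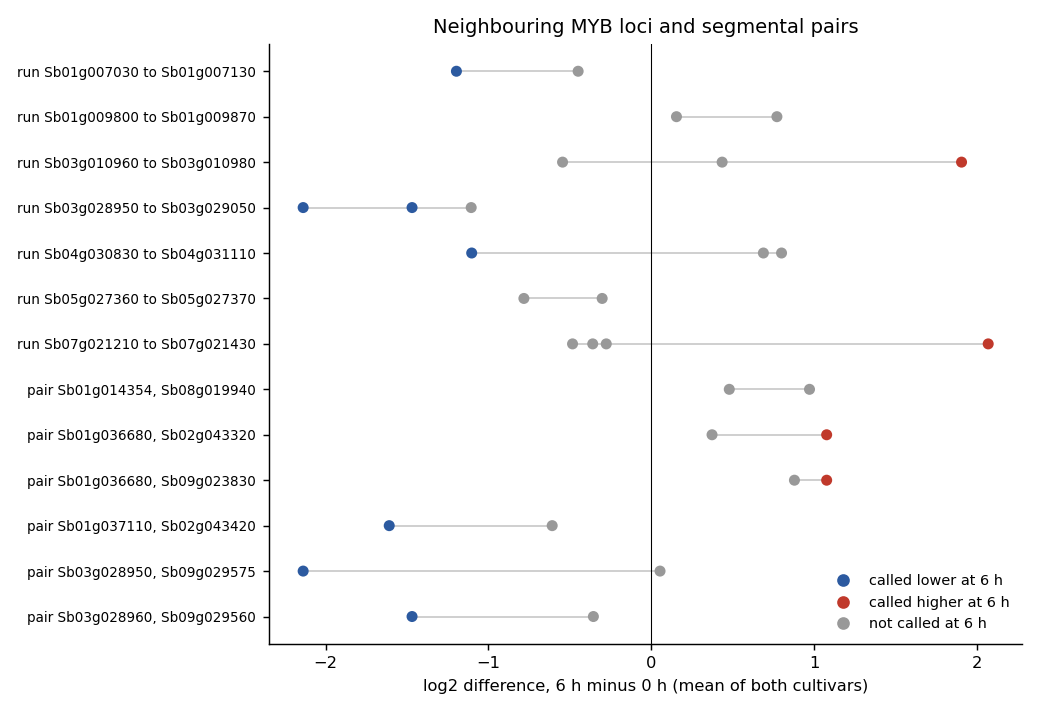
Change from 0 h to 6 h (horizontal axis, log2 difference over both cultivars) of MYB members in the runs of neighbouring loci that hold a member called in any comparison, and in the segmental pairs with a call at 6 h or between cultivars. Each point is 1 tested locus, and coloured points were called at 6 h. In the run on chromosome 7 the called locus at 2.07 stands beside 3 at -0.28 to -0.48.

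Enzymes of phenylpropanoid and flavonoid synthesis, which R2R3 proteins are known to control, were looked at beside the regulators. Of 30 loci so annotated in the lists used here, 27 were on the array and 21 were tested. The paper reports higher expression in Keller for several flavonoid structural genes. Those genes were not among the 27 loci looked at here, so the counts below do not cover them. Of the 21 tested loci, none was called between the cultivars (median -0.01) or at 2 h. Between the cultivars they ran from -2.02 (Sb04g036780, a cinnamoyl-CoA reductase, adjusted p = 0.155) to 0.89 (Sb04g024750, a flavonoid 3'-hydroxylase, adjusted p = 0.292). Not being called does not show that a locus was equal in both. At 6 h 1 fell and 0 rose, with a median of 0.11 (all probes 0.02). The one that fell was Sb04g026560, a phenylalanine ammonia-lyase (-1.79, adjusted p = 0.00044), while 3 other loci of this enzyme gave -0.08 to -0.94 and were not called. For marker genes the scaled signals were summed on the linear scale and the log2 of the sum was taken, so the brightest probes weigh most. Green leaf markers gave 10.27 to 10.93 at 0 h and 10.09 to 10.38 at 6 h. Of the 5 tested, 1 was lower at 6 h, the NADP-dependent malic enzyme (-1.37, adjusted p = 0.0194 by limma), and 1 of the 6 probes was on no array. The 2 root cap probes gave 2.76 to 3.19 at 0 h and 3.28 to 3.55 at 6 h, and 0 were called. Both tissues were thus present in all groups, and the part of these shifts in the MYB changes was not tested.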

How the data were processed

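Total RNA of whole seedlings was hybridised to 12 one-colour arrays. The authors deposited intensity values for every spot, read with Agilent Feature Extraction. The column used was the processed signal, from which the software had subtracted background and removed spatial trends; no scaling between arrays had been applied. Per the methods some genes had no unique probe. A deposited series matrix of the same intensities was not used.

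Spots marked as outliers were dropped, and repeated spots were averaged as log2. A probe carried a flag if 50% or more of its spots did. From each array the log2 of its 75th percentile was subtracted. The filter for being well above background (both arrays of 1 or more groups) left 31950 of 41977 probes. All 12 arrays entered limma 3.58.1 (R 4.3.3) with 6 group means, a moderated test with variance trend, and Benjamini-Hochberg adjustment within each comparison over those probes. The script was tested on simulated data. Figures were drawn with matplotlib 3.10.9 (Python 3.11.15). A lower bound of a fold set the bright group against the lowest signal among probes well above background, or the probe's own where higher, as means of scaled log2 values. Alternatives were normexp correction with an offset of 50, quantile normalization, no scaling, other filters, no trend, blocks for repeat and slide, and each array left out. Where that left 1 array in a group, it was assumed to vary like the others. Shares of all probes called are not given for fits with 1 array left out. Their counts therefore do not tell a change in the members from a change in all probes.

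Deviations from the group means correlated between same-numbered arrays in each of the 15 pairs of groups (r from 0.276 to 0.66). The repeat number was therefore also fitted as a block. The main fit held no block, so counts and p-values above do not use the pairing unless a block is named. The methods list several planting dates and do not tie arrays to them. The number goes partly with the slide, and these cannot be fully told apart.

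Members were taken from 227 rows of the study's transcription factor list, each locus once, and 1 locus is not reported here. The members and lists were chosen with earlier results of these data known. Named were up to 10 called members in each direction and comparison with the largest difference and no overlap between the arrays compared, members whose annotation holds 1 of a set of gene names, and examples of runs of neighbours. Some other loci were named after their values were seen. Columns of the authors' own comparisons were not used. Sequences of these loci were not used here.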

Additional observations from a re-analysis of the deposited data

Results flagged for a closer look

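At each time 1 member had arrays at the later time that all lay above those of 0 h in 1 cultivar and all below in the other. From 0 h to 2 h, Sb07g022120 was on average higher in BT×623 (0.34, log2) and lower in Keller (-0.44). The difference of the changes, Keller minus BT×623, was -0.79 ± 0.41 (SE), and limma's test of it did not pass (adjusted p = 1). From 0 h to 6 h, Sb02g031190, annotated MYB31, was lower in BT×623 (-0.37) and higher in Keller (0.17). Here the difference was 0.54 ± 0.30, and limma's test did not pass either (adjusted p = 1). In each case 1 of 173 members (0.578%) behaved so, against 1.09% of all probes at 2 h and 0.728% at 6 h.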

How the results depend on the processing

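Over all members, the 5 cultivar calls averaged over times became 2 with normexp background correction (all probes 2.06%), 0 without scaling (3.73%) and 3 with the filter on all 12 arrays (2.65%), and 2 to 5 with 1 array left out. At 0 h the count of 0 became 1 with quantile normalization, 1 without the variance trend and 2 with the replicate block, and 0 to 1 with 1 array left out, the call appearing without BT×623 at 0 h, repeat 2. The 4 calls of 2 h became 0 without scaling (all probes 0.507%), 2 without a filter (1.52%), 2 without the trend (2.18%), 11 with the replicate block (5.65%), 10 with the slide block (5.51%) and 0 with only the arrays compared (1.19%), and 0 to 3 with 1 array left out. The 23 calls of 6 h became 12 with normexp (all probes 5.64%) and 9 without scaling (3.58%), and 12 to 23 with 1 array left out, and every call made under those 2 settings was among the 23. For BT×623 at 6 h the 5 calls became 2 without scaling (all probes 0.441%), 18 with the replicate block (9.25%), 14 with the slide block (6.93%) and 0 with only the arrays compared (0%), and 0 to 5 with 1 array left out. For Keller the 2 calls became 1 with the filter on all 12 arrays (2.73%), 18 with the replicate block (7.67%), 11 with the slide block (6.21%) and 0 with only the arrays compared (0%), and 0 to 4 with 1 array left out. The cause of these shifts was not tested. For fits with 1 array left out the share of all probes is not given, here or above. The difference of the 6 h change between cultivars gave 0 calls under each alternative. The direction turned once, for Sb03g010970 at 2 h, at -0.02 with normexp. Without scaling the median of all probes moved to 0.20 at 2 h, 0.13 at 6 h and -0.12 between cultivars, and with normexp to -0.15, -0.10 and 0.13. Signal over background limits the values of the dim loci Sb03g010970, Sb08g019940 and Sb04g026210, whose probes were not well above background in 1 or more groups.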

Other observations

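For 10 members the array held 11 further transcript probes. Over 6 h the further probe of Sb10g030960 gave -1.35 beside -1.30 for the first, and the 3 probes of Sb08g018580, annotated MYBAS2, gave 0.00 to 0.06. The further probe of Sb07g004330 differed most between cultivars, at -0.71 beside 0.00, and was well above background on 8 of 12 arrays.

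The repeats of a group differed in some members in the same way in both cultivars. At 6 h, 21 of the 173 tested members (12.1%) differed at least 2-fold between repeats in the same direction in BT×623 and Keller, against 7.57% of all probes, and at 0 h 28 (16.2%) did, against 3501 of 31950 probes. Sb03g012310 and Sb09g002680 were at least 2-fold higher in repeat 2 in all 6 groups.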
